A study of Mus musculus with 24 samples.

Results

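A set of 821 genomic regions was described here at which the H3K9ac peak of spheroids without CPT1a ranked apart from the control, and at which spheroids without CPT1a that were given acetate did not share that rank. H3K9ac is the acetylation of lysine 9 on histone H3. Peaks of 12 libraries were merged on chromosomes 1 to 19 and X. This gave 38586 regions, and every library had a peak in 12098 of them (31.4%). Within each library these 12098 regions were ranked by their highest fold enrichment, and ranks were expressed as percentiles from 0 (weakest) to 100 (strongest). The members were chosen by these ranks: all 3 ranks in CPT1a knockout had to lie below all 3 scramble and all 3 acetate ranks, or above all 6. This gave 279 lower regions (2.31% of those ranked) and 542 higher regions (4.48%). Since the ranks of scramble, CPT1a knockout and acetate chose the members, their values are a description and no test was made on them. The ranks in KAT2a knockout were not used by the rule.

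The libraries came from spheroids of 4T1, a mouse mammary carcinoma line, collected on day 5 and profiled by ChIPmentation, in which immunoprecipitated chromatin is tagged by a transposase while on the beads. The 4 groups of 3 libraries were scramble (SCR), CPT1a knockout (CPT1a_KO), CPT1a knockout with acetate (CPT1a_KO+Ac) and KAT2a knockout (KAT2a_KO). The medium held 75 µM palmitate in scramble, CPT1a knockout and KAT2a knockout, and 5 mM acetate in the acetate group. Whether that last medium also held palmitate is not given by the labels, although a legend of the study describes these spheroids as grown with it. All lines, the scramble control included, carried a doxycycline-inducible Cas9 and a lentiviral guide according to the study's methods, where the control guide was directed against EGFP. Guides for different exons were made for each targeted gene, and the labels do not say which of them a library carried or whether replicates came from separate cultures. Peak lists do not show edits, so the genotypes could not be checked here. Of 8 epithelial marker genes, all 8 had a promoter region called in every library, while none of 7 immune and none of 4 endothelial marker genes had a promoter peak in any. Of 7 fibroblast marker genes, 2 had a promoter peak in at least 1 library and 1 in all 12.

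CPT1a passes long-chain fatty acids into mitochondria for oxidation to acetyl-CoA, the donor of acetyl groups, and acetate can be turned into acetyl-CoA without it. KAT2a, also called GCN5, is the acetyltransferase of the SAGA and ATAC complexes and a main writer of H3K9ac. The mark sits on nucleosomes around active transcription start sites, many of which lie in CpG islands, and on active enhancers.

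Around the summit, lower regions held fewer CpGs than higher regions, with medians of 8 and 27 in 300 bp. The sequences shown are those of the 3 regions with the widest gap in each direction. Each stretch is plus-strand GRCm38 sequence centred on the median summit of the 12 libraries and trimmed where an annotated UTR began, with every CpG in capitals. The summits of the single libraries spread over 326 bp at Gnai3, 1576 bp at Tfap2a and 1491 bp at Cacybp. Not all of them therefore lie within these stretches. The first 3 belong to regions lower in CPT1a knockout and lie in an intron of Gnai3 (chr3:108145482-108145781), a coding exon of Tfap2a (chr13:40728315-40728614) and an intron of Cacybp (chr1:160212182-160212481). The last 3 belong to higher regions and lie in a coding exon of Lipt2 (chr7:100159290-100159589), an intron of Luzp1 (chr4:136469947-136470246) and just outside the annotated transcript of Frat2 (chr19:41848133-41848409).
Gnai3: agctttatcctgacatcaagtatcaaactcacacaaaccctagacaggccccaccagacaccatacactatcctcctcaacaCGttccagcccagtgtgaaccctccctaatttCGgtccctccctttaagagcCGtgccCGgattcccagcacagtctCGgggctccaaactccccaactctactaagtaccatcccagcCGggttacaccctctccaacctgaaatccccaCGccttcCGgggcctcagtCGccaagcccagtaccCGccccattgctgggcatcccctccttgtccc
Tfap2a: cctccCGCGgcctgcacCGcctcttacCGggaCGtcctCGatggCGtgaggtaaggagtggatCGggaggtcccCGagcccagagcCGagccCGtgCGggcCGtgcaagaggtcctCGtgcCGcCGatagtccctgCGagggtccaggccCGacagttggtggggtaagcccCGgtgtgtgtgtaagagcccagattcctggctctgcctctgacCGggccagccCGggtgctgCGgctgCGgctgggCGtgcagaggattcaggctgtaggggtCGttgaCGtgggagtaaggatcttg
Cacybp: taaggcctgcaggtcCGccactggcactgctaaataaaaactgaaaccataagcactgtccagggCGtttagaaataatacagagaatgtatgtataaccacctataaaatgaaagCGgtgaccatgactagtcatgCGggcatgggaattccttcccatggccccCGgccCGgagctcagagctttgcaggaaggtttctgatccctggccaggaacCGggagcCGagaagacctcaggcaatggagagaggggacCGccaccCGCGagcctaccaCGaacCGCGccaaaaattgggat
Lipt2: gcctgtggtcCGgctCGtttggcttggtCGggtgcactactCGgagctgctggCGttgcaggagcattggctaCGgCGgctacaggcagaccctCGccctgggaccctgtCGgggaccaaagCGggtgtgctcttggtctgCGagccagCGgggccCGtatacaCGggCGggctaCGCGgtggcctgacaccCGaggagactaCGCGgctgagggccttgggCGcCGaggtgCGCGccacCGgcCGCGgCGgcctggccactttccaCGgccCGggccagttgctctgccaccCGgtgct
Luzp1: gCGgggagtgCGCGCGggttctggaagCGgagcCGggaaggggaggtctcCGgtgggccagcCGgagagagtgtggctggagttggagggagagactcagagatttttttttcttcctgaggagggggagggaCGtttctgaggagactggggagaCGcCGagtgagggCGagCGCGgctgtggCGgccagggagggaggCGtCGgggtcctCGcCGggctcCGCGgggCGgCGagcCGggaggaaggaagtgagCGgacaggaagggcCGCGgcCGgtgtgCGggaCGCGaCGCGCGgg
Frat2: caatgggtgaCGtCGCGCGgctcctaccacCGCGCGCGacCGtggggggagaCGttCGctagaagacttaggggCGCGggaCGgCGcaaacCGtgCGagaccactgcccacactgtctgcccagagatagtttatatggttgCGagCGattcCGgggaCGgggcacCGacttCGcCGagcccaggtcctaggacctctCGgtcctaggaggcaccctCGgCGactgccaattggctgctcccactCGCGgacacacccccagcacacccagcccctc
The stretches of the lower regions held 10, 26 and 14 CpGs, and those of the higher regions held 31, 34 and 29. In GC content the stretches of both directions overlapped, with 57.3%, 67.7% and 53.7% at Gnai3, Tfap2a and Cacybp and 71.0%, 71.0% and 66.4% at Lipt2, Luzp1 and Frat2.

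Scramble was the group that most often stood apart from the other 2. With the same rule applied to scramble, 1031 regions (8.52%) lay below and 1364 (11.3%) above both CPT1a knockout groups. Applied to the acetate group, the rule found 247 regions below (2.04%) and 195 above (1.61%). The 542 regions higher in CPT1a knockout alone thus outnumbered the regions at which acetate stood apart in either direction, whereas the 279 lower ones were close in number to the 247 lowest with acetate. Ranked by -log10 p in place of fold enrichment, the rule found 528 lower and 643 higher regions, among them 225 and 424 of the members (80.6% and 78.2%). Over all ranked regions, CPT1a knockout did not overlap scramble in 16.2% (below) and 16.7% (above), and acetate did not overlap CPT1a knockout in 5.79% (above) and 8.51% (below).

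**Figure D1:**
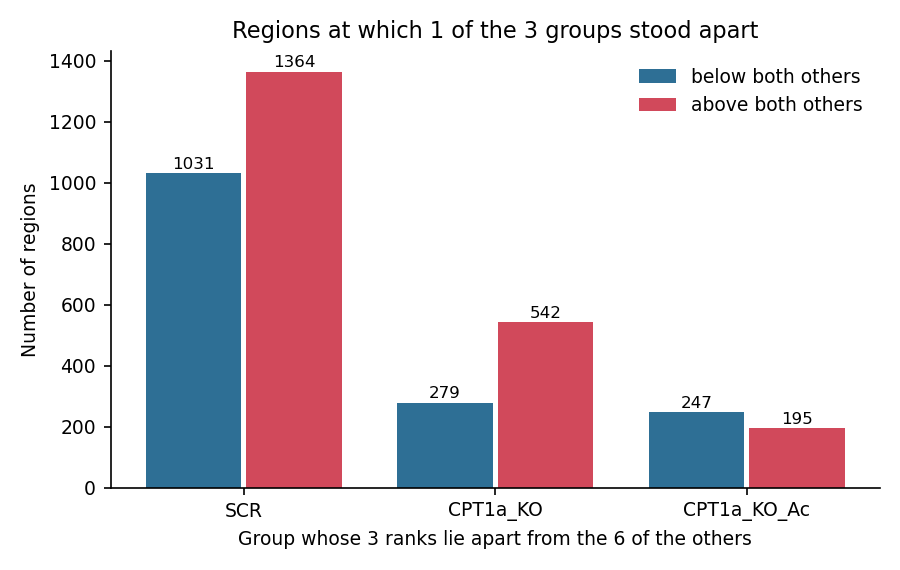
Number of ranked regions (y axis) at which the 3 ranks of 1 group (x axis) lay below (blue) or above (red) the 6 ranks of the other 2 groups, among scramble (SCR), CPT1a knockout and CPT1a knockout with acetate. The middle bars are the 279 lower and 542 higher members, and the bars of scramble reach 1031 and 1364.

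At the lower regions, the median of the group mean ranks was 66.0 in scramble and 30.7 in CPT1a knockout. It was 49.3 with acetate and 45.2 in KAT2a knockout. The higher regions mirrored this order, with medians of 34.7, 64.0, 44.2 and 47.7. The median difference of CPT1a knockout from scramble was -25.0 percentile points at lower and 21.7 at higher regions, and that of acetate from CPT1a knockout was 15.4 and -14.6 points. Members came from weak, middle and strong peaks alike. Averaged over the 12 libraries, the middle 50% of the lower regions ranked from 24.9 to 70.3 and that of the higher regions from 26.6 to 70.7, against 27.2 to 72.2 for all ranked regions. The median SD between the 3 libraries of a group at a member was 3.96 to 6.86 points at lower and 4.10 to 6.70 points at higher regions, with KAT2a knockout highest in both. The rule favours small spreads in the groups it uses, and KAT2a knockout was not among them, so nothing was read from this. In fold enrichment, which was not scaled between libraries, the 3 CPT1a knockout libraries had medians of 16.5, 21.8 and 11.1 over the lower regions and 28.9, 31.3 and 19.2 over the higher ones. The same libraries had 23.8, 27.8 and 16.2 over all ranked regions, so the lower regions lay under and the higher regions over each library's own median.

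**Figure D2:**
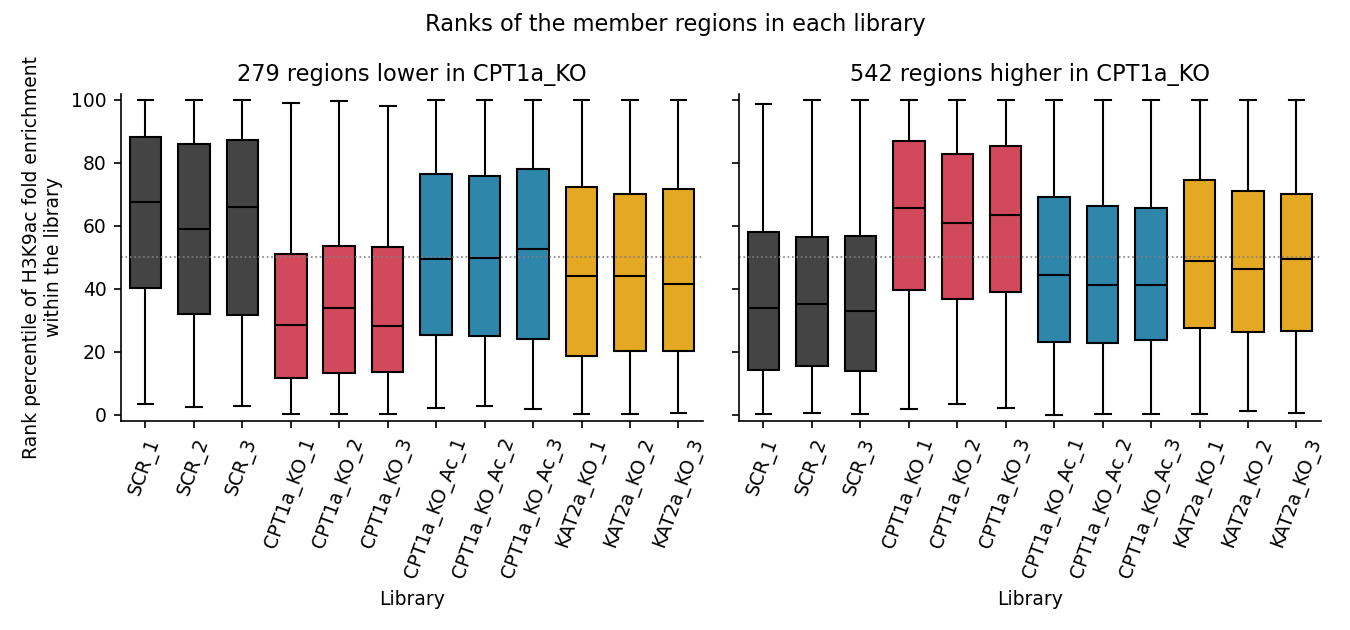
Rank percentile of H3K9ac fold enrichment (y axis) in each of the 12 libraries (x axis) over the 279 lower (left) and 542 higher (right) regions, with boxes from the lower to the upper quartile, a line at the median, whiskers to the last value within 1.5 box lengths and a dotted line at 50. The CPT1a knockout medians run from 28.3 to 33.9 on the left and from 60.9 to 65.5 on the right. The acetate and KAT2a knockout medians lie between those of CPT1a knockout and scramble, while the boxes of the groups overlap.

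The gap is the distance between the CPT1a knockout rank nearest to the other groups and the nearest of their 6 ranks. It had a median of 2.83 points at lower and 3.14 points at higher regions and reached 28.9 and 25.5. A gap of at least 5 points was found at 90 lower (32.3%) and 157 higher regions (29.0%), and one of at least 10 points at 41 and 57. At the edge of the rule the members were hard to tell from non-members. Just inside it, the Asap3 promoter ranked at 9.33, 17.0 and 16.1 in CPT1a knockout and at 17.0, 31.3 and 34.0 with acetate, with a gap of 0.0041 points. Just outside it, a region 41494 bp from the nearest start site, that of Efr3a, ranked at 4.19, 3.03 and 2.65 in CPT1a knockout and at 15.4, 5.07 and 4.19 with acetate. On the higher side, the promoter of Hspa9, a mitochondrial chaperone, was just inside with 99.6, 99.6 and 99.9 in CPT1a knockout and a highest acetate rank of 99.6, and Zfp275 was just outside, because 1 CPT1a knockout rank and 1 acetate rank were both 51.4.

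Among lower regions at promoters, Gnai3, which encodes an inhibitory G protein subunit, had the widest gap (chr3:108141746-108147940). Its region ranked at 92.2, 89.0 and 89.3 in scramble, at 55.7, 44.2 and 45.8 in CPT1a knockout, at 97.6, 89.2 and 84.6 with acetate and at 41.6, 38.5 and 68.9 in KAT2a knockout. Scramble and acetate overlapped near the top of the list, and both knockouts without acetate lay apart from them near its middle. The fold enrichment there was 29.0, 28.8 and 29.7 in scramble and 25.6, 25.6 and 15.2 in CPT1a knockout. Tfap2a, the gene of the transcription factor AP-2α (chr13:40723077-40738740), held one of the strongest peaks of scramble. It ranked at 99.9 or higher in the 3 scramble libraries, at 60.9, 75.0 and 58.8 in CPT1a knockout, at 99.8, 98.6 and 99.8 with acetate and at 99.7, 99.3 and 93.8 in KAT2a knockout. Here CPT1a knockout stood alone, and KAT2a knockout stayed with or close to the controls. Fbxo5, whose product EMI1 restrains the anaphase-promoting complex (chr10:5802085-5807169), ranked at 92.4, 91.5 and 93.5 in scramble, at 50.8, 49.6 and 57.7 in CPT1a knockout and at 76.5, 82.5 and 80.7 with acetate. Acetate lay apart from both other groups at this promoter, so the return was partial. The same order was seen at Cacybp, an adaptor in ubiquitin-mediated degradation of β-catenin, with 90.5, 97.4 and 97.0 in scramble, 51.6, 53.4 and 58.6 in CPT1a knockout and 80.9, 82.5 and 79.0 with acetate. Spp1, which encodes the secreted matrix protein osteopontin (chr5:104434518-104439190), ranked at 62.6, 52.5 and 83.0 in scramble, at 9.88, 22.1 and 15.8 in CPT1a knockout, at 43.0, 42.6 and 38.5 with acetate and at 19.1, 14.1 and 8.13 in KAT2a knockout. The summits of the Fbxo5, Cacybp and Spp1 regions lay in introns of these genes. At Spp1 both knockouts overlapped each other, below acetate, which in turn lay below scramble. The rest of the 12 widest were Gm42791, Cpped1, Fam120b, Pik3cb, Dnmbp, Fam168b and the shared promoter of Ccdc82 and Jrkl, with gaps of 16.8 to 18.7 points. Pik3cb encodes the p110β subunit of phosphoinositide 3-kinase and Dnmbp an exchange factor of Cdc42.

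Lower regions away from promoters made up 91 of the 279, 47 within gene bodies and 44 between genes. Their median distance to a start site was 26080 bp. The widest gap among them was that of an intergenic region 58295 bp from the start of Skap2 (chr6:52070844-52078854), an adaptor of Src family kinases, which ranked at 59.7, 89.7 and 96.8 in scramble, 35.1, 26.7 and 28.1 in CPT1a knockout and 53.5, 56.0 and 68.1 with acetate. The next lay in an intron of Nedd9 (chr13:41330767-41335891), which encodes a scaffold of focal adhesions. It ranked at 59.3, 49.4 and 30.1 in scramble, at 2.22, 10.8 and 11.2 in CPT1a knockout, at 35.5, 26.8 and 28.3 with acetate and at 51.5, 47.8 and 8.40 in KAT2a knockout. One KAT2a knockout library thus lay with CPT1a knockout and the others with scramble. Regions in introns of Mrpl33 and Ctnnd1 (p120 catenin) and in introns of long noncoding RNAs nearest to the start sites of Spdye4c and Trim43a followed, with gaps of 9.95 to 14.6 points.

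**Figure D3:**
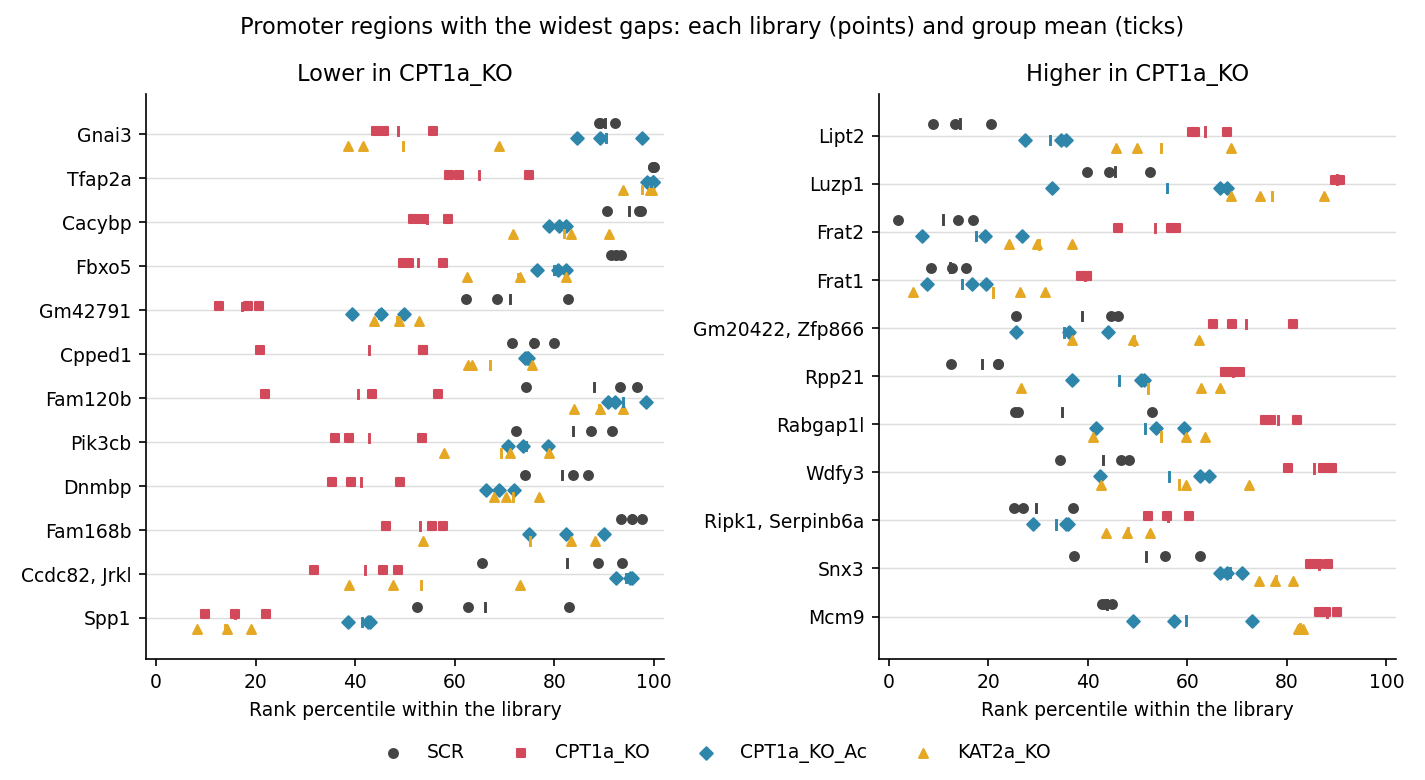
Rank percentile within the library (x axis) at the 12 lower (left) promoter regions with the widest gaps and at 11 of the 12 higher ones (right), ordered by gap from the top, with 1 point per library and a tick at the mean of the 3 libraries of a group. CPT1a knockout (red squares) lies on 1 side of scramble (dark circles) and acetate (blue diamonds) by the rule. All 3 KAT2a knockout ranks (yellow triangles) lie past scramble and acetate on that same side at Gnai3, Spp1, Lipt2, Luzp1 and Mcm9, among others. At Gm42791, Fam120b and Dnmbp, among others, all 3 lie within or past the range of scramble and acetate.

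Among higher regions, the widest gap was at the promoter of Lipt2 (chr7:100158644-100160438), whose product starts the mitochondrial synthesis of lipoic acid, the cofactor of pyruvate dehydrogenase. It ranked at 13.2, 20.6 and 8.81 in scramble, at 61.0, 68.0 and 61.6 in CPT1a knockout, at 35.5, 27.3 and 34.5 with acetate and at 45.7, 49.9 and 68.7 in KAT2a knockout. The groups did not overlap except CPT1a and KAT2a knockout, and acetate lay nearer to scramble. The fold enrichment was 8.51, 9.75 and 6.54 in scramble and 27.3, 33.6 and 18.8 in CPT1a knockout. Luzp1, a gene of an actin- and cilium-associated protein (chr4:136469315-136472605), ranked at 44.2, 52.5 and 39.8 in scramble, at 89.6, 90.7 and 90.1 in CPT1a knockout, at 68.0, 66.6 and 32.8 with acetate and at 68.8, 74.6 and 87.5 in KAT2a knockout. Its acetate libraries were split, with 1 below all scramble libraries and the others above them. Frat2 and Frat1, neighbouring genes of GSK3-binding proteins that promote Wnt signalling, were both among the 12 widest. Frat2 (chr19:41846617-41849110) ranked at 1.86, 13.8 and 17.0 in scramble, 57.6, 56.7 and 46.0 in CPT1a knockout and 26.7, 19.2 and 6.65 with acetate. Frat1, 15463 bp away (chr19:41829136-41831153), ranked at 12.7, 15.5 and 8.45, at 39.8, 39.8 and 38.6 and at 16.6, 19.6 and 7.75 in the same groups. At both, acetate overlapped scramble. Ripk1, a kinase downstream of the TNF receptor, shares its region with Serpinb6a (chr13:34000856-34004483), which ranked at 37.0, 25.1 and 26.9 in scramble, 60.3, 55.8 and 52.1 in CPT1a knockout, 35.9, 29.1 and 35.6 with acetate and 43.6, 47.8 and 52.5 in KAT2a knockout. Mcm9, a helicase gene of homologous recombination, ranked at 42.8, 43.5 and 44.9 in scramble, at 86.5, 87.8 and 90.1 in CPT1a knockout and at 83.3, 82.1 and 82.6 in KAT2a knockout. The others described here were the shared region of Gm20422 and Zfp866, Rpp21, Rabgap1l, Wdfy3 and Snx3, with gaps of 13.7 to 18.9 points.

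Only 52 of the 542 higher regions lay away from promoters, 17 in gene bodies and 35 between genes, at a median distance of 11852.5 bp from a start site. The widest gap among them belonged to a region 3525 bp from the start of Sirt4, a mitochondrial sirtuin (chr5:115488250-115490437), which ranked at 33.8, 23.4 and 32.4 in scramble, 65.8, 66.0 and 63.8 in CPT1a knockout, 45.3, 37.2 and 43.6 with acetate and 29.4, 37.1 and 54.8 in KAT2a knockout. Regions nearest to the start sites of Fkbp5, Ccdc120, Vmn1r86, Rps6ka1 and BC107364 followed, with gaps of 10.7 to 13.4 points.

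With acetate the ranks moved towards scramble at every member by the rule, but often not all the way. Acetate ranks still lay entirely between CPT1a knockout and scramble, without overlap with scramble, at 103 of 279 lower (36.9%) and 164 of 542 higher regions (30.3%). They overlapped scramble at 166 (59.5%) and 366 (67.5%), and they lay beyond it at 10 and 12. Over all ranked regions, acetate did not overlap scramble in 17.0% (below) and 15.3% (above). Setting the CPT1a knockout mean at 0% and the scramble mean at 100%, the acetate mean stood at a median of 65.6% at lower and 68.7% at higher regions. It reached scramble or passed it at 53 lower and 120 higher regions. At Srebf2, for instance, it stood at 34.6%, and at Sgf29 at 106%.

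The KAT2a knockout ranks, which played no part in the choice, were in most members neither all on the side of CPT1a knockout nor all with scramble and acetate. All 3 lay on the side of CPT1a knockout, below every scramble and acetate rank, at 43 of the lower regions (15.4%, exact 95% binomial interval 11.4% to 20.2%). At the higher regions all 3 lay above every scramble and acetate rank at 87 (16.1%, 13.1% to 19.4%). Over all ranked regions KAT2a knockout lay below both groups in 1.64% and above both in 2.99%. The members were chosen for low or high ranks against the same 6 libraries, so these percentages share their controls with the rule and nothing was read from their difference. All 3 KAT2a knockout ranks were within or past the range of scramble and acetate at 82 lower (29.4%) and 164 higher regions (30.3%), and they were split at 154 (55.2%) and 291 (53.7%). On the scale from CPT1a knockout at 0% to scramble at 100%, the KAT2a knockout mean stood at a median of 45.1% at lower and 49.3% at higher regions. The intervals cover counting error only, and regions are not independent samples. Leaving out single libraries moved the shares outside them. The share with CPT1a knockout at lower regions was 8.91%, 10.0% and 11.1% without CPT1a knockout replicate 1, 2 or 3. It was 20.4% and 21.5% without acetate replicate 2 or 3, and 23.5%, 23.3% and 24.7% without KAT2a knockout replicate 1, 2 or 3. At higher regions it was 11.6% and 12.2% without CPT1a knockout replicate 2 or 3, and 20.2% to 21.8% without 1 acetate library. Without KAT2a knockout replicate 1, 2 or 3 it was 22.9%, 26.0% and 26.3%.

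Each knockout was also compared directly. KAT2a knockout lay above CPT1a knockout without overlap at 121 lower regions (43.4%, against 7.46% of all ranked regions), overlapped it at 155 and lay below it at 3. It lay below CPT1a knockout at 276 higher regions (50.9%, against 8.31%), overlapped it at 258 and lay above it at 8. Against scramble, KAT2a knockout lay below at 131 lower regions (47.0%, against 15.1% of all) and above at 238 higher regions (43.9%, against 14.6%). The rule had chosen members for extreme CPT1a knockout ranks and for scramble ranks on the far side of them, which by itself moves these percentages away from those of all ranked regions, so nothing was read from the distance between them. Taf5l, a subunit gene of the SAGA complex that shares its region with Urb2, went furthest past CPT1a knockout among the list genes named here. It ranked at 90.0, 94.1 and 87.3 in scramble, 79.5, 63.5 and 74.6 in CPT1a knockout, 88.8, 91.8 and 91.6 with acetate and 52.1, 60.6 and 68.9 in KAT2a knockout.

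**Figure D4:**
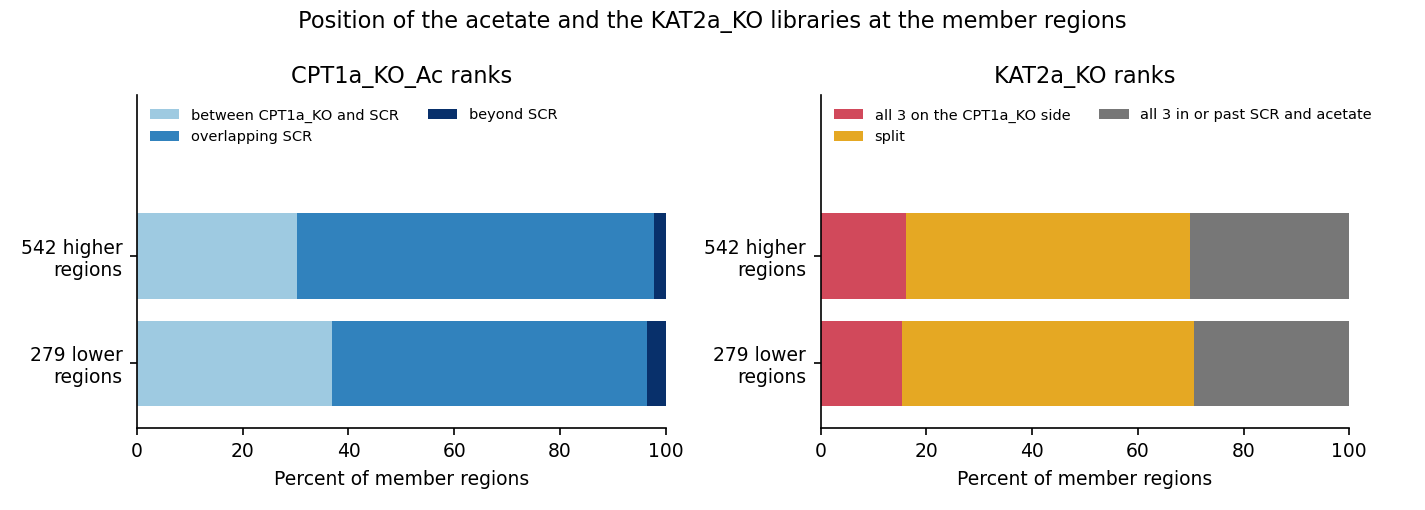
Percent of the 279 lower and 542 higher regions (x axis) by where the 3 acetate ranks lay relative to scramble (left) and where the 3 KAT2a knockout ranks lay relative to scramble and acetate (right). Acetate overlapped scramble at 59.5% and 67.5% of the regions, and KAT2a knockout was entirely on the CPT1a knockout side at 15.4% and 16.1%.

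The promoters of genes tied to acetyl-CoA, acetylation and NF-κB, the pathway the study examined in these spheroids, were read against those of all genes. Of 10685 genes with a promoter region in all 12 libraries, 1.97% had a lower and 5.00% a higher region, and the median difference of CPT1a knockout from scramble over these genes was 1.43 points. Of 15 core NF-κB pathway genes, 1 was a lower member (6.67%) and none a higher one, with a median difference of -1.12 points. It was Tnip1, which encodes an A20-binding inhibitor of NF-κB (chr11:54960382-54963662), with ranks of 58.8, 66.8 and 54.9 in scramble, 24.4, 24.1 and 30.4 in CPT1a knockout, 55.3, 49.9 and 43.2 with acetate and 37.4, 20.2 and 35.7 in KAT2a knockout. Both knockouts overlapped below scramble and acetate there. Of 22 measured NF-κB target genes, Vcam1 and Cd44, which encode adhesion receptors, were lower members (9.09%) and none was higher, with a median difference of -3.19 points. Vcam1 ranked at 60.3, 38.4 and 30.1 in scramble, 20.2, 21.9 and 18.6 in CPT1a knockout and 25.8, 26.8 and 29.0 with acetate. Its acetate ranks lay just above those of CPT1a knockout, and it was not a member once the trend of ranks with GC content, described below, was removed. Cd44 ranked at 92.5, 90.5 and 87.1 in scramble, 58.8, 77.1 and 59.7 in CPT1a knockout, 83.4, 86.7 and 85.6 with acetate, and its KAT2a knockout ranks were far apart (97.3, 93.4 and 33.6). The promoter of Rela, the gene of the p65 subunit, was not a member.

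Of 21 genes of the carnitine shuttle and fatty acid oxidation, Acadm, the medium-chain acyl-CoA dehydrogenase, was the one member. It was lower (4.76% of the list), with ranks of 62.2, 73.0 and 62.7 in scramble, 18.2, 35.3 and 23.5 in CPT1a knockout and 52.7, 36.9 and 58.2 with acetate. Cpt1a itself was not a member, since its CPT1a knockout ranks of 42.8, 59.1 and 67.8 overlapped both scramble (23.3, 51.9 and 39.5) and acetate (52.9, 67.8 and 79.7). Of 11 genes of acetyl-CoA supply, Slc25a1, the mitochondrial citrate carrier, was a higher member (9.09%), at 21.0, 15.9 and 11.7 in scramble, 40.1, 32.5 and 49.3 in CPT1a knockout and 26.5, 28.2 and 29.1 with acetate. Of 13 genes of fatty acid and cholesterol synthesis described here, Srebf2 was a higher member (7.69%) and none was lower. Srebf2, the master regulator of cholesterol synthesis genes, ranked at 71.9, 70.3 and 64.4 in scramble, 92.4, 90.7 and 92.5 in CPT1a knockout, 84.7, 83.9 and 83.1 with acetate and 80.5, 81.4 and 84.4 in KAT2a knockout.

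Histone acetyltransferases and their partners had 3 higher members and 1 lower one among 19 genes (15.8% and 5.26%), with a median difference of 13.1 points. The higher ones were Kat2a itself, Kat5 (the catalytic subunit of the NuA4 complex) and Sgf29 (a SAGA subunit that reads H3K4 methylation), and the lower one was Taf5l. The Kat2a region, shared with Hspb9 (chr11:100710863-100714910), ranked at 11.7, 17.4 and 13.0 in scramble, 48.4, 55.7 and 69.4 in CPT1a knockout, 39.8, 41.9 and 42.9 with acetate and 54.4, 25.9 and 43.3 in KAT2a knockout. Every other group lay above scramble at this promoter, and acetate had moved 37.1% of the way back. Kat5 ranked at 52.8, 46.2 and 53.1 in scramble, 91.3, 80.4 and 88.1 in CPT1a knockout and 74.6, 67.8 and 78.1 with acetate. Sgf29 ranked at 25.6, 20.6 and 19.6, at 43.3, 39.2 and 26.6 and at 21.1, 20.0 and 22.1, so that acetate overlapped scramble there. None of 17 histone deacetylase genes, 7 regulators of epithelial-mesenchymal transition or 16 AP-1 and immediate early genes was a member.

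In the other lists, lower members were Cdk4 and Top2a of 18 cell cycle genes (11.1%), Asns of 12 genes of unfolded protein and amino acid stress (8.33%), Isg15 of 12 interferon response genes (8.33%), Rpl32 of 81 ribosomal protein genes (1.23%) and Hist1h4j of 66 histone genes (1.52%). Pfkl was a higher member among 18 genes of glycolysis and hypoxia (5.56%), and Epcam among the 8 epithelial markers (12.5%). Oxidative phosphorylation had Atp5f1 and Sdhd lower and Atp5g3 and Ndufaf1 higher of 98 genes (2.04% in each direction), and the mitochondrial ribosome had Mrpl18 lower and Mrpl48 higher of 78 (1.28% in each). Of 302 Zfp genes, 5 (1.66%) were lower and 19 (6.29%) higher, close to the 1.97% and 5.00% of all genes. Of 44 developmental regulators, Foxc1 was lower (2.27%) and Foxj1, Foxj3, Foxp3 and Hoxd3 were higher (9.09%). Counts of 1 to 5 genes in a list were read as descriptions of those genes and not of the list, whether its share lay above or below that of all genes.

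The 2 directions differed in base composition and in place. Lower regions had a median GC content of 46.8% and 2.02 CpGs per 100 bp, and higher regions 52.4% and 3.96, against 49.9% and 2.96 for all ranked regions. Of regions under 45% GC, 4.87% were lower and 1.05% higher members. Of regions of at least 60% GC, none of 388 was lower and 13.1% were higher. In the 300 bp around the median summit of the 12 libraries, the median number of CpGs was 8 at lower, 27 at higher and 15 at all ranked regions. A promoter, within 1000 bp of an annotated start site, was present at 67.4% of lower and 90.4% of higher regions, against 81.0% of all. Read by place, 1.92% of promoter regions, 4.99% of gene body regions and 3.24% of intergenic regions were lower members, and 5.00%, 1.81% and 2.58% were higher. Lower regions were wider, with a median of 3378 bp against 2850.5 bp. Chromosome X held 32 higher regions (9.85% of its 325 ranked regions) and 2 lower ones, and chromosome 3 held 25 lower (4.22% of 593) and 12 higher ones.

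Most of the motifs searched in the same 300 bp, on both strands, followed this composition. GGGCGG, a core of SP and KLF sites, was present at 17.6% of lower, 57.2% of higher and 35.3% of all ranked regions. CCGGAAG, a core of ETS sites, was found at 2.15%, 7.93% and 5.23%, AAGATGGCG, a YY1 motif, at 0 of 279, 2.21% and 0.463%, and GCGCATGC, an NRF1 motif, at 0 of 279, 1.29% and 0.686%. CCAAT, the core of NF-Y sites, was more frequent at lower regions, with 27.6%, 14.9% and 21.4%. TGTGGTT of RUNX (6.45%, 1.66% and 3.68%) and GGAATG of TEAD (15.8%, 8.49% and 12.7%) followed the same direction. GGANTTTCC, a form of the NF-κB site, was rare, at 2 lower regions (0.717%), 3 higher regions (0.554%) and 1.24% of all. TGANTCA of AP-1 was found at 4.66%, 2.40% and 4.12%, and TGACGTCA, the CRE, at 0 of 279, 0.369% and 0.256%. A match shows letters in a window, not a bound factor.

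Base composition moved with the groups over all ranked regions, not only at the members. From regions under 45% GC to those of at least 60%, the median rank changed by -43.9 to -54.9 points in scramble, -9.74 to -16.1 in CPT1a knockout, -19.0 to -23.0 with acetate and -21.8 to -23.0 in KAT2a knockout. Acetate and KAT2a knockout lay between CPT1a knockout and scramble in this trend, and their ranges overlapped each other. With the GC trend removed from each library, the rule found 266 lower and 522 higher regions, of which 139 and 310 were among the members (49.8% of the lower and 57.2% of the higher members). The full sets of 266 and 522 had the opposite composition, with a median GC of 51.4% for lower and 48.2% for higher regions. The 139 and 310 members among them kept the original order, with 48.6% and 50.9%. Over the 821 members, the median difference of CPT1a knockout from scramble was then -18.4 points at lower and 17.6 at higher regions, and that of acetate from CPT1a knockout was 14.3 and -14.0. Of the 89 member regions named by the rule for named regions, 63 were members either way, among them Gnai3, Tfap2a, Cacybp, Fbxo5, Spp1, Lipt2, Luzp1, Frat1, Frat2, Tnip1, Srebf2 and Kat2a. The other 26 were not, among them the shared promoter of Ccdc82 and Jrkl, the region near Skap2, Slc25a1, Vcam1, Isg15, Top2a, Rpl32, Hist1h4j, Mrpl18, Atp5f1, Sdhd, Atp5g3 and the 4 higher developmental regulators.

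**Figure D5:**
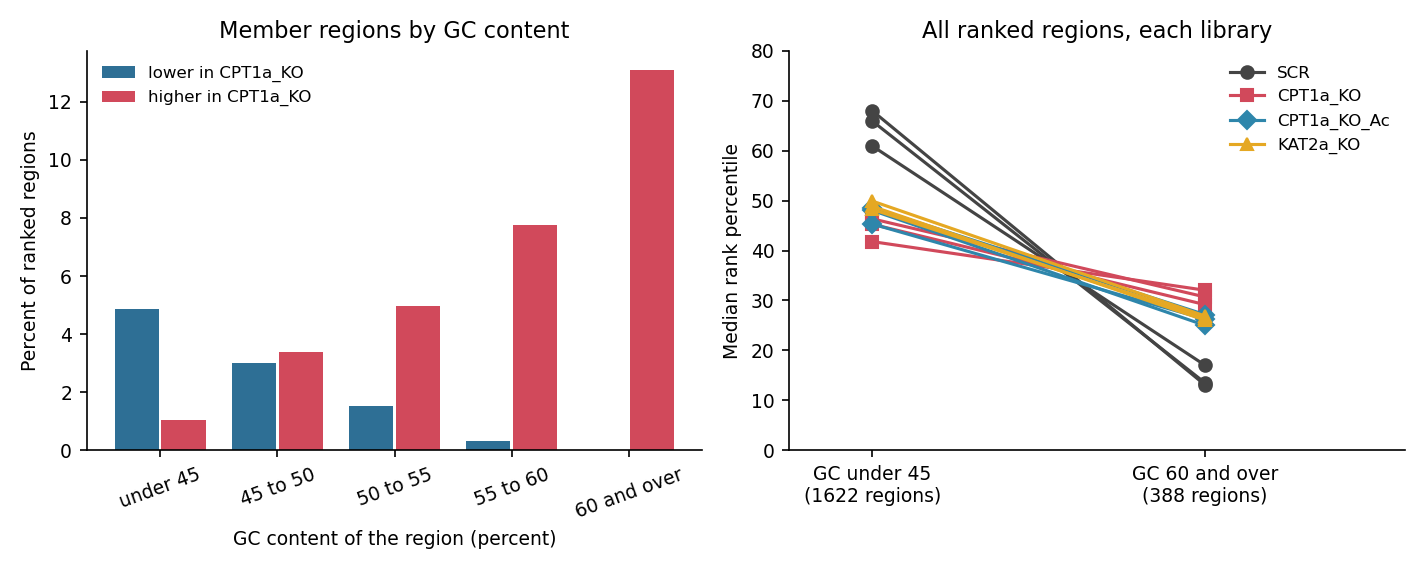
Left, percent of ranked regions (y axis) that were lower (blue) or higher (red) members, by GC content of the region in percent (x axis). Right, median rank percentile (y axis) of the 1622 ranked regions under 45% GC and the 388 of at least 60%, with 1 line per library, where the 3 scramble lines fall by 43.9 to 54.9 points and the 3 CPT1a knockout lines by 9.74 to 16.1.

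The depth at which the lists were called moved with the groups as well. No read depth was given by the sources used here, and the calling depth, the mean fragment coverage recovered from the deposited fold enrichments and p-values, was 1.87 to 2.52 in scramble, 0.554 to 1.70 in CPT1a knockout, 0.66 to 1.91 with acetate and 1.02 to 1.82 in KAT2a knockout. The number of peaks used was 29153 to 34330 in scramble and 16201 to 24594 in the other groups. The shallowest library, CPT1a knockout replicate 3, limited which regions could be ranked: without it 13085 regions were ranked, and 639 were lower and 1042 higher. Leaving out another CPT1a knockout library also raised the counts, to 617 lower and 903 higher without replicate 1 and to 649 and 1129 without replicate 2, since fewer ranks had to lie apart. Acetate replicate 2, the other library with a depth under 1, left 447 lower and 726 higher regions when it was not used. The part of depth and of GC content in the ranks was not tested, and preparation batches, which the labels do not give, cannot be told apart from the groups.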

How the data were processed

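Peak lists of 12 H3K9ac libraries were used. The 12 inputs were not analysed here. According to the study's methods, the authors used BWA for alignment to mm10 (GRCm38) and Picard for duplicates, whereas the submitters' processing notes name Bowtie2, SAMtools, deepTools, FastQC and MACS2, so the aligner is not settled. Each list was called on 1 library. The deposited fold enrichment divides the pileup at a summit by its local background, a ratio within 1 library that was not scaled between libraries. The deposited -log10 p and -log10 q belong to the peak within its own list, and the deposited score equals 10 times the -log10 q rounded down. The lists reached down to a q of 0.01. The added Drosophila chromatin was not analysed here, and total H3K9ac was therefore not measured.

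Overlapping peaks (at least 1 bp) on chromosomes 1 to 19 and X were merged, and the highest fold enrichment of each region called in 12 libraries was ranked within the library. Promoters lay within 1000 bp of a protein-coding start site of GENCODE vM21. GC content and sequence came from GRCm38.p6, and to remove the GC trend, each library's median rank in each of 50 GC bins was subtracted. The calling depth was recovered from peaks with a -log10 p under 60, assuming the formulas of MACS2. Named were the 12 promoter regions and 6 other regions with the widest gap in each direction, the 3 with the widest gap for each placement of KAT2a knockout, members of the gene lists, and Cpt1a, Kat2a and Rela. A pair of regions that this rule names, 1 of them from a gene list, is not reported here. Members and lists were chosen with earlier results of these data known. The rule was tested on simulated data. Python 3.11.15, numpy 2.4.6, pandas 2.3.3, scipy 1.17.1 and matplotlib 3.10.9 were used. Groups came from the labels. No p-value was computed, and the intervals given cover counting error only.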

Additional observations from a re-analysis of the deposited data

How the results depend on the processing

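With -log10 p as the rank, 528 regions were lower, and KAT2a knockout lay with CPT1a knockout at 20.5% of them. Where peaks had to cover 0.5 of the region, 68 lower and 167 higher regions were left, with median GC of 48.5% and 53.8%, and 77.9% of the lower ones were at promoters. With the GC trend removed, median GC was 51.4% for lower and 48.2% for higher regions, and 87.2% of the higher ones were at promoters. A gap of at least 5 points left 90 and 157 regions, with 73.3% of the lower at promoters and KAT2a knockout with CPT1a knockout at 22.3% of the higher. With lists of equal length, 76.5% of the lower regions were at promoters. Leaving out 1 library at a time gave 279 to 649 lower and 542 to 1129 higher regions. The placement of KAT2a knockout with CPT1a knockout ranged from 8.91% to 24.7% and from 11.6% to 26.3%, promoter shares from 64.4% to 72.9% and from 88.1% to 90.6%, and median GC from 46.4% to 47.4% and from 51.6% to 52.9%. Among these, the highest counts and the lowest placements came without a CPT1a knockout library, where fewer ranks had to lie apart. For 91 named regions, 1750 values were recomputed, of which 72 moved by more than the SD between replicates and 3 changed sign. These were Isg15 with peaks up to 500 bp apart joined (20.4 points, in a wider region), and Vcam1 (3.84) and Atp5f1 (3.25) with the GC trend removed, whose cause was not tested. Under 4 alternatives together (rank by -log10 p, rank by mean fold enrichment, joined peaks, GC trend removed), 82 lower (29.4%) and 197 higher (36.3%) members were kept. With a replicate block, chosen after seeing the data, in which each CPT1a knockout library was set only against the scramble and acetate libraries of its number, 688 lower and 1075 higher regions were found, all 279 and 542 members among them since fewer ranks had to lie apart, and KAT2a knockout lay with CPT1a knockout at 8.43% and 11.3%. The ranks of same-numbered libraries of different groups did not deviate together (correlations of -0.054 to 0.078 in 18 pairs), and 3 of 12 libraries correlated best with their own number. Whether same-numbered libraries shared a culture or a preparation is not given by the labels.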
